A study of Homo sapiens with 6 samples.

Results

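The genes described here are 7 transcription regulators of 1 circuit: EGR1, EGR2, EGR3, EGR4, NAB1, NAB2 and SRF. Each was taken by its symbol from the 44591 genes counted in the A2780 libraries, and all 7 were listed. They were selected on earlier values of the same contrast: the read count of EGR1 in r-CRMP2 and untreated libraries led to the choice, and its relatives and partners were added. The difference between groups in these genes is therefore a description, given without p-values.

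A2780 is an established human ovarian cancer cell line, labelled wild type, and all 6 cultures were grown in DMEM with fetal bovine serum. 3 cultures were untreated controls and 3 received recombinant human CRMP2 (r-CRMP2) in the medium, at 40 ng/ml by the sample labels. The labels put both groups at 48 h. CRMP2, encoded by DPYSL2, is a microtubule-associated protein that the study had found in the medium of cancer-associated fibroblasts, and the RNA sequencing asked which pathways of the cancer cells responded to it. Whether the cultures were grown independently is not stated, so the spread between libraries may be technical in part. The libraries held between 21888530 and 25711353 counted reads, and no pair of replicates matched within sampling noise. KRT8, KRT18 and KRT7, keratins of simple epithelium, had mean levels of 1264, 1249 and 664 CPM (read counts scaled to a common library size after TMM normalisation) in untreated cells. Of the other ovarian epithelial markers, MUC16, which encodes CA125, was at 42.7 CPM, PAX8, EPCAM and KRT19 were at 4.06, 4.44 and 1.40 CPM, and WT1 and CDH1 stayed under 1 CPM in every library. The fibroblast marker COL1A1 was at 418 CPM in untreated and 316 CPM in r-CRMP2 cells. The summed level of 11 fibroblast markers was 612 to 685 CPM in untreated and 537 to 561 CPM in r-CRMP2 libraries. COL1A1 made most of that difference: of the 10 tested, 4 rose (COL1A2, LUM, PDGFRA and THY1) and 3 fell (COL1A1, PDGFRB and POSTN) at an adjusted p-value under 0.05 (edgeR). The defining leukocyte markers PTPRC, CD3E, CD14 and LYZ were under 1 CPM throughout. The sum of 6 leukocyte markers was nevertheless 23.7 to 28.04 CPM in untreated and 73.7 to 80.4 CPM in r-CRMP2 libraries, with CD68 at means of 23.1 and 74.2 CPM, a lysosomal protein that epithelial lines also express. The part of this shift in the results below was not tested.

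EGR proteins are zinc-finger transcription factors of the immediate-early class. Their genes are transcribed within minutes of growth factor or stress signals and are shut off again soon after. ERK phosphorylates ELK1 and its relatives, which sit with SRF, the serum response factor, on CArG boxes in front of EGR1 and EGR2. NAB1 and NAB2 bind EGR1, EGR2 and EGR3 and turn them into repressors, in part by recruiting the NuRD chromatin complex, and NAB2 is itself induced by EGR proteins. EGR4 lacks the domain that NAB proteins bind.

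The promoters are shown first because they hold matches to motifs of this circuit: CArG boxes before EGR1, EGR2 and SRF, and an EGR-type motif in NAB2, EGR1, SRF and NAB1. The sequences are those of RefSeq on GRCh38.p14. A promoter was found for 6 of the 7 genes, and EGR3 was not among them. For EGR1, EGR2 and SRF, the 250 bases before the transcript start are given 5′ to 3′ on the strand of the gene, with CArG boxes in capitals. For EGR2 this is the innermost of 3 annotated starts, and for SRF the outer of 2. For NAB2, whose window lies mostly within annotated exon sequence, only 30 bases around the match are given, and the capitals mark the motif GCGNGGGCG.
EGR1, chr5:138465229-138465478, plus strand: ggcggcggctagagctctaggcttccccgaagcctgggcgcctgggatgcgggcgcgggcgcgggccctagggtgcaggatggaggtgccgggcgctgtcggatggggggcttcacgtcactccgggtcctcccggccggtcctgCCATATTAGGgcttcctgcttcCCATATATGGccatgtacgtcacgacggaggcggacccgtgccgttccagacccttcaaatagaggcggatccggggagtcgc
EGR2, chr10:62816367-62816616, minus strand: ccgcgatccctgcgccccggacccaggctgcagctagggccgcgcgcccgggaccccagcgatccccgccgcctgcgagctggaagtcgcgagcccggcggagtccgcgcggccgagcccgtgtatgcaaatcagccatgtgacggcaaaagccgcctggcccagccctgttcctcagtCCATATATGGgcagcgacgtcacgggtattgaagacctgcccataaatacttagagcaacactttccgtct
SRF, chr6:43171019-43171268, plus strand: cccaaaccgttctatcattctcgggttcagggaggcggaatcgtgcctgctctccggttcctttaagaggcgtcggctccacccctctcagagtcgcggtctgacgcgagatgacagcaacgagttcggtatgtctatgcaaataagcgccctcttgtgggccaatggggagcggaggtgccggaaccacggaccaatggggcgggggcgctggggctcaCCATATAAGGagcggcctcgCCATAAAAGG
NAB2, chr12:57089041-57089070, plus strand: ctgtgcgtcctGCGGGGGCGgaggcgcgga

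Each 250-base window was searched on both strands for 3 motifs: the CArG box, the cyclic AMP response element half-site TGACG, and GCGNGGGCG, the core of the site that EGR proteins bind. The EGR1 window held 2 CArG boxes, beginning 105 and 83 bases before the start, and the EGR2 window held 1, beginning 71 bases before it. SRF held 2, beginning 30 and 10 bases before its own start. A CArG box was found in 407 of 35114 promoters of this length (1.16%). The half-site TGACG lay on either side of the CArG boxes in both EGR1 (135 and 66 bases) and EGR2 (110 and 54 bases), and 2 copies were in front of EGR4 (177 and 109 bases). TGACG was in 21.2% of all promoters. GCGNGGGCG was found in front of NAB2 (62 bases), EGR1 (198 bases), SRF (49 bases) and 2 of the 3 starts of NAB1, against 8.41% of all promoters. The 2 matches in front of the first NAB1 start, 42 and 36 bases away, overlap each other and recur in the window of the second start. No match of one motif overlapped a match of another in these windows. A match is a description of the letters and shows no binding.

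**Figure D1:**
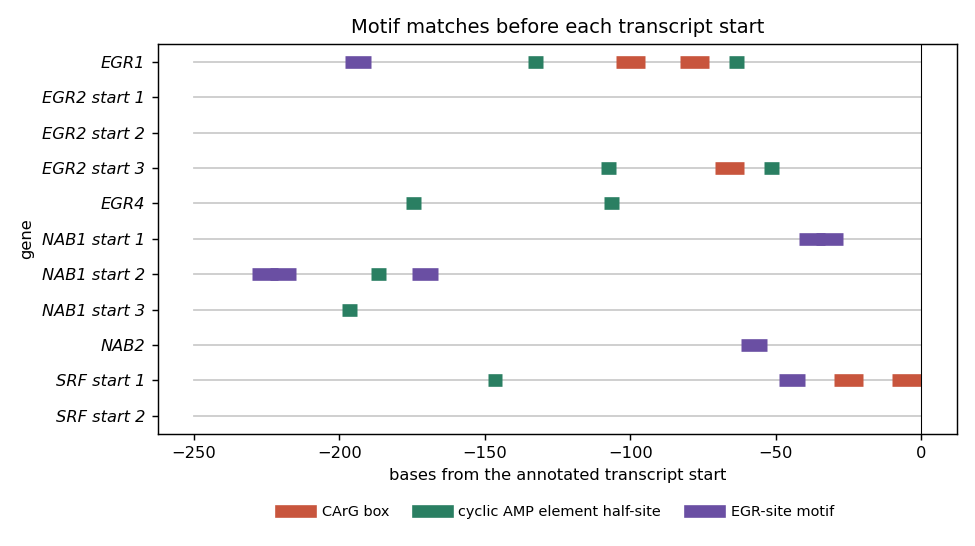
Matches to 3 motifs (coloured bars) in the 250 bases before each annotated transcript start; the horizontal axis is the distance in bases from the start, and each row is 1 start of 1 gene. CArG boxes are seen in EGR1, the third EGR2 start and the first SRF start only, and the EGR-site motif in EGR1, NAB1, NAB2 and SRF.

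EGR1 was far lower in the r-CRMP2 libraries, and the less abundant EGR2 and EGR3 were lower with it. The corepressor NAB2 was higher, NAB1 was modestly higher, and SRF differed little. EGR4 was at the limit of detection in both groups. Because these are extracts of whole cultures, fewer expressing cells and less RNA per cell cannot be told apart. Of the 6 members that passed the low-count filter, 3 were lower and 1 was higher at an adjusted p-value under 0.05 and an absolute log2 fold change of at least 1, the thresholds of the study. Of all 16222 genes tested, 8.86% were lower and 5.12% higher by that rule (14% in either direction). The 831 higher and 1437 lower genes became 489 and 2553 with library size alone. At the adjusted p-value alone 3 members were lower and 3 higher, where 30.1% of all genes were lower and 28.2% higher (58.2% in either direction). EGR2 and EGR3 passed the filter only through the untreated libraries, where they were higher, so the filter favoured their call as lower. The contrast had also served to choose the genes, so nothing is read from their count.

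EGR1 (chromosome 5, 137801181 to 137805004, plus strand; positions are those in the deposited tables, for which the submitters' processing notes name hg19) is the most studied member and responds to serum, hypoxia and growth factors. Its levels were 63.5, 114 and 147 CPM in untreated replicates 1, 2 and 3, from 1768, 2813 and 4032 reads. In r-CRMP2 replicates 1, 2 and 3 they were 6.73, 3.74 and 3.39 CPM, from 144, 74 and 78 reads. Every treated library was below every untreated one, and the highest treated library remained far under the lowest untreated library. The means were 108 ± 42.2 and 4.62 ± 1.84 CPM (SD, n = 3 per group). The log2 fold change was -4.55 (standard error 0.47), a 23.5-fold lower level, and 2 of the 16222 genes tested had a more negative one. EGR1 also varied more between replicates than most genes did. Its coefficient of variation was 38.9% in untreated and 39.7% in r-CRMP2 libraries. The biological coefficient of variation fitted by edgeR was 0.178, against 0.0619 for the trend at its abundance, and 86.0% of the genes tested had a lower one. With any 1 of the 6 libraries removed, the log2 fold change stayed between -4.92 and -4.27.

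EGR2 (chromosome 10, 64571756 to 64578927, minus strand) is known for driving myelination in Schwann cells. It was counted 18, 22 and 31 times in untreated replicates 1, 2 and 3, or 0.646, 0.895 and 1.13 CPM. In r-CRMP2 libraries it was counted 3, 0 and 0 times. The groups did not overlap, but the treated level rests on 3 reads in 1 library. Pooled over each group and scaled for depth, the untreated level was 19.0 times the treated level, with an exact 95% interval from 6.25 to 94.5 that covers counting error only. Without r-CRMP2 replicate 1, which held those 3 reads, the treated group was at 0 and the fitted value of -7.45 on the log2 scale is no measure of size.

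EGR3 (chromosome 8, minus strand) shares its DNA-binding zinc fingers almost entirely with EGR1 and EGR2. It had 27, 31 and 40 reads in untreated replicates 1, 2 and 3, or 0.969, 1.26 and 1.46 CPM. The r-CRMP2 libraries had 1, 1 and 7 reads, or 0.0468, 0.0505 and 0.305 CPM. All treated libraries were below all untreated libraries, with replicate 3 the highest of the treated ones. The pooled untreated level was 8.755 times the treated level (exact 95% interval 4.43 to 19.7, counting error only). The fitted log2 fold change was -3.09 (standard error 0.54), and it was -4.52 without r-CRMP2 replicate 3.

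EGR4 (chromosome 2, 73518057 to 73520829, minus strand) had 0, 2 and 1 reads in the untreated libraries and 1 read in each r-CRMP2 library. With 3 reads in either group, it did not pass the low-count filter and no difference could be detected at this depth. EGR1 alone made up between 97.5% and 98.2% of the reads of the 4 EGR genes in untreated libraries. In r-CRMP2 libraries it made up between 90.7% and 97.4%. EGR1 remained the leading EGR transcript in every library, treated or not.

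**Figure D2:**
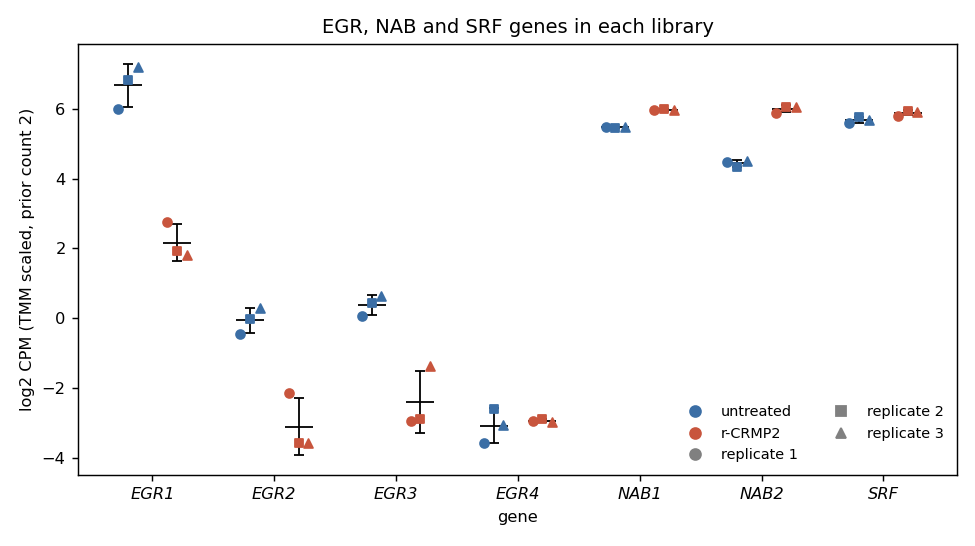
Level of each gene in each of the 6 libraries on the log2 CPM scale (vertical axis, TMM scaled, prior count of 2), with untreated libraries in blue and r-CRMP2 libraries in red; symbols mark the replicate number, horizontal bars the mean and whiskers 1 SD (n = 3). EGR1, EGR2 and EGR3 are lower in all 3 r-CRMP2 libraries, NAB1 and NAB2 are higher, and EGR4 overlaps at the floor.

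NAB2 (chromosome 12, 57482677 to 57489259, plus strand), the corepressor that EGR proteins induce, went the other way. Its levels were 22.0, 19.98 and 22.8 CPM in untreated replicates 1, 2 and 3 and 59.0, 66.3 and 67.0 CPM in r-CRMP2 replicates 1, 2 and 3. All treated libraries were above all untreated ones, with little spread inside either group. The means were 21.6 ± 1.45 and 64.1 ± 4.43 CPM (SD, n = 3 per group), and the log2 fold change was 1.57 (standard error 0.08). NAB2 shares 73 bases at its 3′ end with STAT6, which is transcribed from the opposite strand. The strand setting of the counting is not given in the sources used here. STAT6, a cytokine-activated transcription factor, fell from 83.5 ± 4.72 to 38.4 ± 2.52 CPM (SD, n = 3 per group), with a log2 difference of -1.12 (adjusted p = 2e-10, edgeR's quasi-likelihood test). The neighbours thus differed in opposite directions.

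NAB1 (chromosome 2, 191513621 to 191557492, plus strand), the other corepressor, varied least between replicates of the 6 genes tested. Its levels were 44.4, 44.1 and 44.2 CPM in untreated replicates 1, 2 and 3 and 61.9, 64.2 and 62.4 CPM in r-CRMP2 replicates 1, 2 and 3. Its coefficient of variation was 0.313% in untreated and 1.87% in r-CRMP2 libraries, and all treated libraries were higher. NAB1 had 1084 to 1236 reads in untreated and 1271 to 1435 reads in r-CRMP2 libraries. Counting error at that depth is larger than this spread. The spread, and the standard error of NAB1 taken from it, therefore understate the uncertainty. Only 1.39% of the genes tested had a lower biological coefficient of variation. The log2 fold change was 0.51 (standard error 0.02), a 1.42-fold higher level, below the fold change threshold of 1. An antisense transcript (ENSG00000228509.1) overlaps NAB1 and had at most 5 reads in a library. Another transcript, ENSG00000253125.1, overlaps EGR3 on the opposite strand and had at most 3 reads.

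SRF (chromosome 6, 43139033 to 43149244, plus strand) drives both immediate-early and cytoskeletal genes. Its levels were 48.0, 54.2 and 51.6 CPM in untreated replicates 1, 2 and 3 and 55.9, 61.1 and 60.3 CPM in r-CRMP2 replicates 1, 2 and 3. The groups did not overlap but lay next to each other. The log2 fold change was 0.20 (standard error 0.06) with TMM scaling. Its direction depended on the scaling: with library size alone it was -0.11. TMM factors were 1.10 to 1.12 in untreated and 0.879 to 0.922 in r-CRMP2 libraries, and the median log2 fold change of all genes moved from -0.03 to -0.34 when TMM was left out. EGR1, EGR2, EGR3, NAB1 and NAB2 had the same direction under both scalings. The groups did not overlap in CPM in any of the 6 genes tested, 3 of them with r-CRMP2 above and 3 below. Among all genes tested, 30.9% were separated with r-CRMP2 above and 33.3% with r-CRMP2 below.

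**Figure D3:**
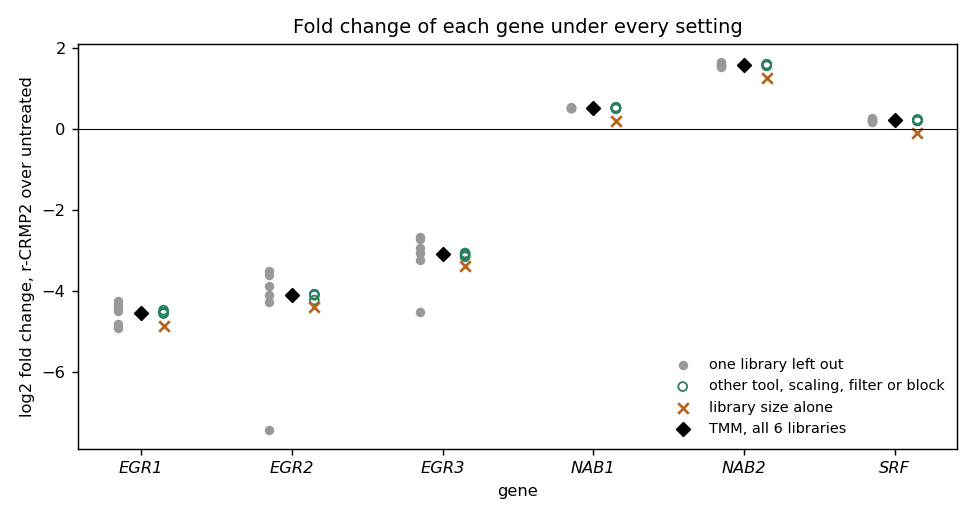
Log2 fold change of r-CRMP2 over untreated (vertical axis) for the 6 genes that passed the low-count filter; black diamonds are the values in the text, grey points fits without 1 library, open circles other tools, scalings, filters or the replicate block, and crosses library size alone. SRF crosses 0 with library size alone, and EGR2 spreads to -7.45 without r-CRMP2 replicate 1.

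Levels were compared between genes on the TPM scale, which accounts for gene length. In untreated libraries EGR1 was the most abundant of the 7, at 48.6, 90.2 and 115 TPM in replicates 1, 2 and 3. SRF (29.3 ± 2.21 TPM), NAB1 (23.5 ± 0.279 TPM) and NAB2 (19.4 ± 1.19 TPM) followed in that order (SD, n = 3). EGR2 (0.689 ± 0.193 TPM) and EGR3 (0.668 ± 0.140 TPM) did not differ beyond their spread, and EGR4 was last. In r-CRMP2 libraries NAB2 led at 46.0 ± 2.31 TPM. SRF (26.9 ± 0.711 TPM) and NAB1 (26.6 ± 0.753 TPM) came next and did not differ beyond their spread, and EGR1 followed at 2.89 ± 1.26 TPM (SD, n = 3). EGR2, EGR3 and EGR4 were all under 0.14 TPM there and could not be ordered. SRF overlapped between the groups on the TPM scale, at 27.0 to 31.4 TPM in untreated and 26.5 to 27.7 TPM in r-CRMP2 libraries.

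The order of activator and corepressor was reversed between the groups. In untreated libraries the TPM of EGR1 was 2.49, 4.95 and 5.59 times that of NAB2 in replicates 1, 2 and 3. In r-CRMP2 libraries the TPM of NAB2 was 10.1, 20.5 and 22.8 times that of EGR1 in replicates 1, 2 and 3. The balance of the corepressors shifted as well: NAB2 was 0.768 to 0.874 times NAB1 in untreated libraries and 1.62 to 1.82 times NAB1 in r-CRMP2 libraries. These ratios are taken within a library, so the scaling between libraries does not enter them.

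**Figure D4:**
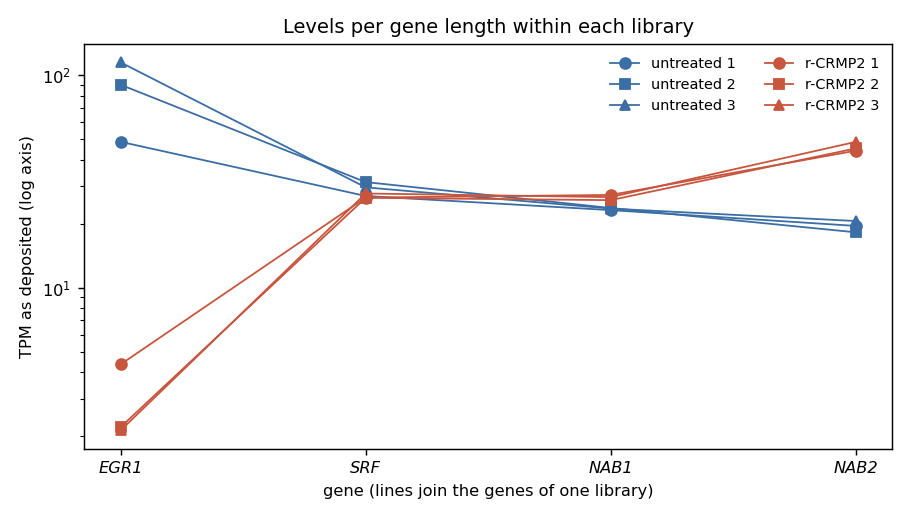
Deposited TPM (vertical log axis) of EGR1, SRF, NAB1 and NAB2, with lines joining the values of 1 library; untreated libraries are blue and r-CRMP2 libraries red. EGR1 is at the top of the untreated libraries (48.6 to 115 TPM) and at the bottom of the r-CRMP2 libraries, where NAB2 is the highest of the 4.

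The EGR genes were next set beside 44 other immediate-early genes, a hand-written list of genes that the same signals induce. This list and those below were written with earlier results of these data known. Their shares beside those of all genes are therefore a description. HBEGF, GADD45B, CYR61 and CTGF each lie in 2 of the lists. Most of the 44 rose while EGR1, EGR2 and EGR3 were lower. At an adjusted p-value under 0.05 (edgeR's quasi-likelihood test), 30 of 44 rose (68.2%, against 28.2% of all genes tested), 8 fell (18.2%, against 30.1%) and 6 did not pass. With the fold change threshold, 17 were higher (38.6%, against 5.12% of all genes) and 3 lower (6.82%, near the 8.86% of all genes). The median log2 fold change of the list was 0.69, beside -0.03 for all genes tested, and the list ran from -2.23 to 3.07, so that EGR1, EGR2 and EGR3 lay below its lowest member.

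The largest rises were in IER3, HES1 and FOSL1. IER3, an inhibitor of apoptosis induced by stress, was at 406, 346 and 347 CPM in untreated replicates 1, 2 and 3 and at 2508, 3582 and 3171 CPM in r-CRMP2 replicates 1, 2 and 3. It rose by 3.07 on the log2 scale (SE 0.17; adjusted p = 6.73e-14 by edgeR). HES1, a repressor downstream of Notch, rose by 2.64 on the log2 scale, and FOSL1, which encodes the AP-1 subunit FRA1, by 2.57. Their adjusted p-values (edgeR) were 2.03e-10 and 2.5e-13, and in all 3 genes every treated library was above every untreated library.

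The 3 largest falls were in CTGF, DUSP2 and FOSB. CTGF (also named CCN2), a secreted matrix protein and target of SRF and YAP, was at 51.2, 65.8 and 88.6 CPM in untreated replicates 1, 2 and 3 and at 16.3, 14.04 and 13.7 CPM in r-CRMP2 replicates 1, 2 and 3. It fell by 2.23 on the log2 scale (SE 0.24; adjusted p = 2.21e-10 by edgeR). DUSP2, a phosphatase that inactivates ERK, fell by 1.41 on the log2 scale, and the AP-1 subunit gene FOSB fell by 1.27 (adjusted p = 4.41e-06 and 4.55e-05 by edgeR). All 3 were lower in every treated library than in any untreated one. With library size alone, 11 genes of the list were higher and 6 lower past both thresholds.

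The untreated libraries differed among themselves in the same sense for much of this class. EGR1, EGR2 and EGR3 were each lowest in untreated replicate 1 and highest in untreated replicate 3. The same ranking of the 3 untreated libraries was found in 23 of the 44 immediate-early genes (52.3%) and in 3008 of the 16222 genes tested (18.5%). CTGF, DUSP2 and FOSB were among the 23. This count was made after the values were seen, and the part of this spread in the difference between groups was not tested beyond leaving out each library.

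**Figure D5:**
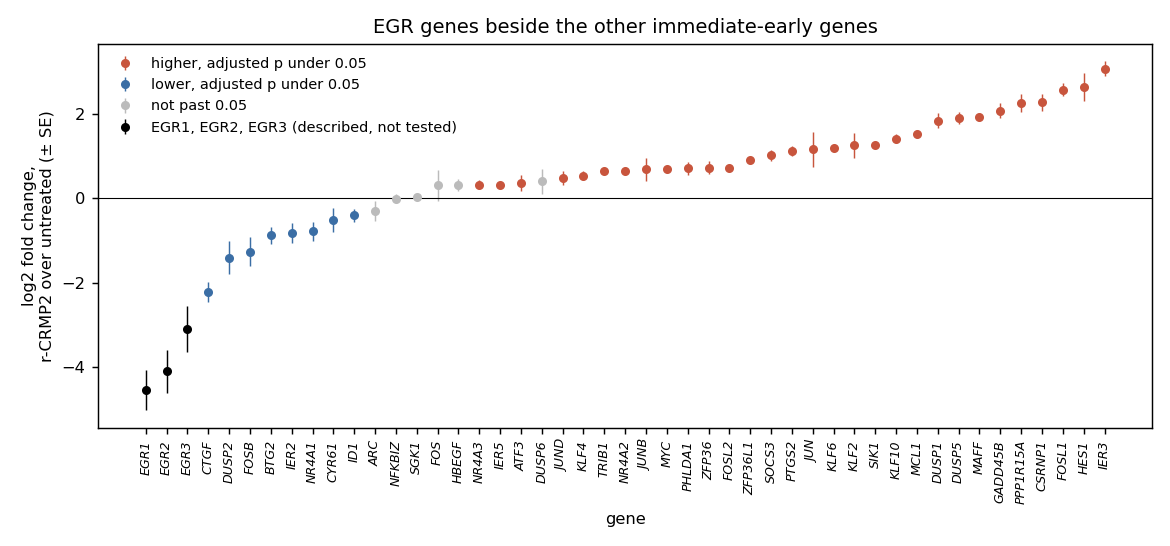
Log2 fold change (vertical axis, with 1 standard error) of 44 immediate-early genes and of EGR1, EGR2 and EGR3, ordered by value; red and blue points are past an adjusted p-value of 0.05, grey points are not, and the black EGR genes are shown as a description. The EGR genes lie at the low end, below CTGF at -2.23, while 30 genes of the list are higher.

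Of the 44 immediate-early genes, 34 had a RefSeq promoter. None of the 34 held a CArG box within 250 bases of a start, TGACG was found in 18 (52.9%) and GCGNGGGCG in 9 (26.5%). These shares are per gene, and a gene can have more than 1 promoter. Counted per promoter, TGACG was in 44.2% of their 43 promoters, against 21.2% of all promoters, and GCGNGGGCG in 20.9%, against 8.41%. None of the 43 held a CArG box, but at 1.16% of all promoters that absence says little. CArG boxes farther out would not be seen in this window.

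Genes that EGR1 is known to bind and regulate were taken from a hand-written textbook list of 26. Of these, 15 rose (57.7%, against 28.2% of all genes tested) and 5 fell (19.2%, against 30.1%) at an adjusted p-value under 0.05 (edgeR). Past both thresholds were 9 higher (34.6%, against 5.12%) and 1 lower (3.85%, against 8.86%), and the median log2 fold change was 0.55. VEGFA, the angiogenic growth factor, and NDRG1, a stress-response gene, rose from 121 ± 8.90 to 617 ± 76.9 CPM and from 1779 ± 281 to 7664 ± 507 CPM (SD, n = 3 per group), or by 2.35 and 2.11 on the log2 scale (adjusted p = 9.93e-14 and 1.37e-12 by edgeR). Both are also known targets of HIF-1. CCND1, which encodes cyclin D1, fell from 161 ± 3.40 to 78.2 ± 5.85 CPM (SD, n = 3 per group), with a log2 difference of -1.04 (adjusted p = 1.79e-10 by edgeR). ID3, an inhibitor of bHLH factors, fell by 0.43 on the log2 scale (adjusted p = 0.000784 by edgeR), and its groups overlapped. With library size alone, 12 genes of the list rose and 6 fell, 5 of the former past both thresholds, and CCND1 was under the fold change threshold without r-CRMP2 replicate 2 (-0.98).

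The factors that partner SRF and the zinc-finger relatives that bind EGR-type sites were 10, of which 8 were tested. At an adjusted p-value under 0.05 (edgeR), 5 rose (62.5%, against 28.2% of all genes tested) and 2 fell (25%, against 30.1%), none past both thresholds, and the median log2 fold change was 0.34. On library size alone 3 rose and 3 fell. The ternary complex factors ELK1, ELK3 and ELK4, which receive the ERK signal, rose from 72.5 to 103 CPM, from 44.8 to 59.2 CPM and from 52.7 to 63.9 CPM (means, n = 3 per group). Their log2 fold changes were 0.50, 0.40 and 0.28 (adjusted p = 1.59e-06, 0.00012 and 0.0053 by edgeR). Without TMM, ELK3 did not pass (0.09, adjusted p = 0.303 by edgeR) and ELK4 changed sign (-0.03). The actin-regulated coactivators MKL1 and MKL2, also named MRTFA and MRTFB, fell by 0.43 and 0.78 on the log2 scale (adjusted p = 0.00162 and 1.21e-06 by edgeR). MYOCD, the muscle member of that family, was at 0.303 and 0.255 CPM and was not tested. Of the zinc-finger factors that recognise GC-rich sites like those of EGR proteins, SP1 and SP3 rose by 0.54 and 0.94 on the log2 scale (adjusted p = 2.6e-07 and 3.55e-10 by edgeR). SP4 had a log2 fold change of -0.26 (adjusted p = 0.0818 by edgeR), and it passed with library size alone (-0.57). WT1, which binds the EGR site itself, was at 0.0738 and 0.0168 CPM and was not tested.

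In the ERK cascade, the kinases that lead from RAS to ELK1, 5 of 19 genes rose and 5 fell at an adjusted p-value under 0.05 (edgeR), and the median log2 fold change was 0.04. Both shares, 26.3% each, were near those of all genes tested (28.2% and 30.1%), and none of the 19 was past both thresholds. On library size alone the balance was 2 higher and 14 lower, with a median of -0.27. BRAF, MAP2K1 (MEK1) and RPS6KA5 (MSK1) rose the most, by 0.58, 0.46 and 0.38 on the log2 scale (adjusted p = 0.00014, 4.43e-06 and 0.00705 by edgeR). SOS1, the exchange factor that loads RAS with GTP, fell by 0.84 (adjusted p = 1e-06 by edgeR), RPS6KA2 by 0.47 and NRAS by 0.39 on that scale (adjusted p = 0.00277 and 0.000106 by edgeR). RPS6KA5 did not pass with library size alone (0.07, adjusted p = 0.6 by edgeR). These are transcript levels, and the activity of the kinases was not measured in these libraries.

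The list of SRF targets, here called cytoskeletal, also holds CTGF and CYR61, which encode secreted matrix proteins. Of the 25 SRF targets tested, 19 rose (76%, against 28.2% of all genes tested) and 3 fell (12%, against 30.1%) at an adjusted p-value under 0.05 (edgeR). CTGF and CYR61 were both among the 3 that fell. Past both thresholds was 1 gene in each direction (4%, against 5.12% higher and 8.86% lower of all genes), and the median log2 fold change was 0.42. MYH9, the heavy chain of nonmuscle myosin, rose from 766 ± 36.0 to 1618 ± 116 CPM (SD, n = 3 per group), with a log2 difference of 1.08 (adjusted p = 1.62e-10 by edgeR). ACTG1 (gamma actin) and FHL2, an SRF cofactor and target, rose by 0.82 and 0.78 (adjusted p = 1.79e-08 and 4.6e-09 by edgeR). Besides CTGF, described above, CYR61 (CCN1) fell by 0.52 and TPM1, a tropomyosin, by 0.18 on the log2 scale (adjusted p = 0.00555 and 0.02 by edgeR). The groups overlapped for CYR61, and neither gene held in every alternative: CYR61 did not pass with DESeq2 (adjusted p = 0.123) or without untreated replicate 3, and TPM1 did not pass in 4 of the 6 fits that left out 1 library. On library size alone, 10 of the cytoskeletal genes were higher and 4 lower.

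Among 13 subunits of NuRD, the complex that NAB proteins recruit, 8 rose (61.5%, against 28.2% of all genes tested) and 3 fell (23.1%, against 30.1%) at an adjusted p-value under 0.05 (edgeR). None was past both thresholds, where 14% of all genes were, and the median log2 fold change was 0.18. The balance turned over on library size alone, with 1 higher, 5 lower and a median of -0.14. MTA1, GATAD2B and HDAC2 rose by 0.54, 0.45 and 0.36 on the log2 scale (adjusted p = 3.27e-07, 4.45e-06 and 0.000113 by edgeR). MBD3, a scaffold subunit, fell from 173 ± 10.2 to 101 ± 3.95 CPM (SD, n = 3 per group), with a log2 difference of -0.78 (adjusted p = 6.85e-09 by edgeR). GATAD2A and MTA2 fell by 0.30 and 0.22 (adjusted p = 0.000614 and 0.00378 by edgeR). Without TMM scaling, GATAD2B and HDAC2 did not pass (adjusted p = 0.061 and 0.504 by edgeR).

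The genes whose levels followed EGR1 most closely over the 6 libraries were SETD4, ANAPC7, SLC35B4, FLJ32255 and DPY19L4, among 12720 genes with a mean normalised count of at least 50. Their Pearson correlations with EGR1 on the log2 CPM scale lay between 0.9988 and 0.9997. These points fall into 2 groups that differ, so a gene with a difference between groups has a high value: 1840 genes were above 0.95. Their own log2 fold changes, from -1.46 to -0.59, were smaller than that of EGR1. After the group means were taken out, RCBTB1, CLIP4, SETD4, FLJ32255 and PDE4B were closest, with correlations from 0.992 to 0.998. These rest on 6 libraries less 2 group means and are the highest among 12720 genes, so values this high can arise without a link. RCBTB1 had a correlation of -0.22 over the libraries and a log2 fold change of 0.09. Of the genes described above, CTGF was at 0.996 over the libraries and 0.904 for the deviations, and CYR61 at 0.783 and 0.975. FHL2 (-0.9975 and -0.99) and ACTG1 (-0.998 and -0.95) were closer than CTGF on both measures, with the opposite sign. For the deviations, ACTG1 was less close than CYR61. NAB2 was at -0.98 over the libraries and -0.46 for the deviations.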

How the data were processed

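Polyadenylated RNA of 6 A2780 cultures (3 untreated, 3 r-CRMP2) was sequenced on an Illumina instrument. The counts deposited by the authors are whole reads per gene without normalization, and the submitters' processing notes list FastQC, HISAT2, DESeq2 and hg19. The counting tool, annotation and strand setting are not given in the sources used here. The deposited TPM values differed by at most 4.72e-06 from counts divided by gene length and rescaled, and were used only to compare genes within a library. Library totals ranged from 21888530 to 25711353 reads.

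Groups were compared over all genes with edgeR 4.0.16 (limma 3.58.1, R 4.3.3), using TMM, its filter on low counts (16222 genes kept), the quasi-likelihood test and Benjamini-Hochberg adjustment, at 0.05 and an absolute log2 fold change of 1. Standard errors are from log2 CPM with a prior count of 2. The test was checked on simulated counts that had the same dispersion for every gene, with changes placed only in genes of higher count. EGR2 and EGR3 were below that count and EGR1 was more variable, so the check does not cover them. Members and lists were chosen with earlier results of these data known. Named are all members, up to 3 rises and 3 falls per list (adjusted p under 0.05, mean CPM of at least 1), all SRF partners, genes closest to EGR1 and genes overlapping a member. Some genes that this rule names are not reported here. Promoter motifs were searched in RefSeq sequence (GRCh38.p14), apart from the deposited positions. Alternatives were DESeq2 1.42.0, other scalings, filters and a lower prior count, the replicate block, no fold change threshold and leaving out each library.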

Additional observations from a re-analysis of the deposited data

How the results depend on the processing

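EGR1, EGR2, EGR3, NAB1 and NAB2 kept their direction in every alternative run. Causes of the changes below were not tested, except where the alternative uses fewer genes or libraries or drops a threshold. With library size alone, the log2 fold change was 0.20 for NAB1 and 1.26 for NAB2, and SRF (-0.11) and ELK4 (-0.033) changed sign. NAB1 was 0.53 with RLE size factors and with DESeq2. With a prior count of 0.5 in place of 2, the difference in mean log2 CPM of EGR2 went from -3.04 to -4.43. Over the 6 fits that each left out 1 library, EGR2 ranged from -7.45 to -3.52, EGR3 from -4.52 to -2.68 and NAB1 from 0.50 to 0.53. EGR2, EGR3 and EGR4 could not be fitted with at least 10 counts in every sample, and EGR4 was tested only without a low-count filter.

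The 831 higher and 1437 lower genes became 489 and 2553 with library size alone and 4574 and 4875 without a fold change threshold, and 946 were lower with at least 10 counts in every sample. With library size alone, past both thresholds, 11 immediate-early genes were higher and 6 lower (17 and 3 in the main analysis), 5 EGR1 targets were higher (9), 0 cytoskeletal targets were higher (1), and 1 gene each was lower among SRF partners, the ERK cascade and NuRD subunits (0). Without a fold change threshold, 30 and 8 immediate-early genes were higher and lower, 15 and 5 EGR1 targets, 19 and 3 cytoskeletal targets, 5 and 2 SRF partners, 5 and 5 ERK cascade genes and 8 and 3 NuRD subunits. Leaving out 1 library, the lower immediate-early genes numbered 3 to 5 (5 without untreated replicate 1) and the lower EGR1 targets 0 to 1.

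The replicate numbers gave no evident pairing: deviations of same-numbered libraries correlated at -0.021, 0.0038 and -0.025 across genes. With the replicate block, 819 genes were higher and 1437 lower, and EGR1 was at -4.48, EGR2 at -4.10, EGR3 at -3.17, NAB1 at 0.51, NAB2 at 1.57 and SRF at 0.20.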
